A study of Homo sapiens with 3 samples.

Results

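Clustered histone genes were examined in A549 cells, an established human lung adenocarcinoma line, after depletion of the DEAD-box RNA helicase DDX24. The members were taken as the rows annotated as protein coding whose symbol begins with HIST1H to HIST4H and whose counts reach at least 10 when summed over the 3 libraries. This left 29 of the 71 protein-coding rows of these clusters, out of 58735 genes in the tables. The members were thus chosen by their summed count over all libraries, so their presence among the measured genes is not a result. The 3 libraries were Control-sh, DDX24-sh1 and DDX24-sh2, which the sample records name as the control, Knockdown1 and Knockdown2 of DDX24, with 1 library per condition and no replicate. Per the study's methods, the cells were lines made with lentiviral pLKO.1 vectors and selected with puromycin, a treatment that the control cells shared. The control is described both as an empty vector and as a control shRNA, and which of these the library holds was not stated. All cells were grown in F12K medium with FBS, without a DNA synthesis block or other cell cycle synchronisation in the records.

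Histone proteins package DNA. H2A, H2B, H3 and H4 form the nucleosome core, and H1 binds the linker DNA between nucleosomes. Most of their genes lie in clusters and are transcribed mainly during S phase, when new DNA needs new nucleosomes. Their messenger RNAs usually have no introns and end, without a poly(A) tail, in a conserved stem-loop that is bound by SLBP, and U7 snRNP directs the cleavage behind it. Some clustered genes also give transcripts that read past the stem-loop to a poly(A) site, mostly in cells that have left the cycle. Histone variants encoded outside the clusters, such as H3F3B and H1F0, make polyadenylated RNA throughout the cycle.

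The total of the tables was 17218884 counts for the control, 18337471 for the DDX24-sh1 library and 17847190 for the DDX24-sh2 library. DDX24 itself, the targeted gene, had 2010, 637 and 765 counts. Of 8 epithelial and A549 marker genes all were detected in every library, with 96250 to 106051 counts for ALDH1A1, 63926 to 69499 for KRT8, 40475 to 50979 for KRT7 and 37796 to 43887 for AKR1B10. EPCAM had 29 to 32. CDH1, the epithelial cadherin, had 538, 358 and 261 counts. Its log2 ratios to the control were -0.68 (95% counting interval -0.88 to -0.49) and -1.12 (-1.34 to -0.91). It was the 1 gene of the list at least 2-fold lower, with DDX24-sh2, where 4.63% of all genes with at least 10 counts were. The summed counts of 8 markers of other cell types were 12, 45 and 28, and were thus highest with DDX24-sh1. Most of the difference lay in COL3A1, a fibrillar collagen gene of fibroblasts, with 2, 27 and 8 counts and log2 ratios of 2.79 (1.66 to 6.77) and 1.28 (-0.41 to 5.19). PECAM1 had 6, 12 and 7 counts, SFTPC 3, 4 and 4 and CD68 0, 1 and 5, and PTPRC was at 0 in every library. The part of these marker differences in the histone values was not tested. The share of counts on mitochondrial genes differed between the libraries, at 4.36%, 5.13% and 7.04%, and the part of this difference in the results below was not tested. The deposited FPKM carry the names of the shRNA libraries the other way round from the counts. In 11641 genes with at least 50 counts in each library, FPKM times gene length over count lay within 1% of a constant in 100% of genes once the shRNA names were exchanged and in 5.33% and 5.32% with the names as given. DDX24-sh1 and DDX24-sh2 here are the libraries whose counts carry those names, and every statement on which hairpin had the higher value turns round if the FPKM names are the right ones.

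The upstream sequences of the members that carry most of the counts, or that differed most between libraries, are shown to display the promoter elements of these genes. They are the 250 bases before the RefSeq transcription start on GRCh38.p14, read 5′ to 3′ on the strand of the gene. Capitals mark, on either strand and at any position, the letters of the CCAAT box (CCAAT), the TATA box (as TATAAA) and the octamer bound by POU2F1 (as ATTTGCAT). Where motifs on the opposite strands overlap, the run of capitals is longer.
HIST1H1C, chr6:26056471-26056720, minus strand: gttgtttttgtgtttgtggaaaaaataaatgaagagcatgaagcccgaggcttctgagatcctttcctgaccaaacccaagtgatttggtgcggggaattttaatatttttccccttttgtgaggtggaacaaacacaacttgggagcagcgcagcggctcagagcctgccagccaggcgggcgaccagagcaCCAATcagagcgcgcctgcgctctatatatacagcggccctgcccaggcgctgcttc
HIST1H2BK, chr6:27146859-27147108, minus strand: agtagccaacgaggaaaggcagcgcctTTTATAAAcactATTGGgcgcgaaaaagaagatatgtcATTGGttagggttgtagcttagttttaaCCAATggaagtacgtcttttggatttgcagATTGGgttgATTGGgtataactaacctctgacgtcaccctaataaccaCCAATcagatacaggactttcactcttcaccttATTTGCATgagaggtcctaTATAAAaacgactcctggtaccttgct
HIST1H2AC, facing HIST1H2BC, chr6:26123922-26124171, plus strand: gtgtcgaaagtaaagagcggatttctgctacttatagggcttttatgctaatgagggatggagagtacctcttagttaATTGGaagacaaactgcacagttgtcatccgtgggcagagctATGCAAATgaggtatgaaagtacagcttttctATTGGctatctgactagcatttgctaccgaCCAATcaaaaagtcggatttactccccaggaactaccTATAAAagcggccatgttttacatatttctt
HIST1H2BJ, facing HIST1H2AG, chr6:27132796-27133045, minus strand: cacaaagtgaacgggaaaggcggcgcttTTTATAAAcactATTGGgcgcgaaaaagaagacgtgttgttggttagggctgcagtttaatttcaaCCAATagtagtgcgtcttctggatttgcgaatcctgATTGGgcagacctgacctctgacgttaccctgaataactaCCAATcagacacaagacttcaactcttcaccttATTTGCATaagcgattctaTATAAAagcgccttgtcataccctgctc
All 29 members matched a RefSeq promoter. CCAAT was present in 25 of them (86.2%), against 32.0% of the 35116 RefSeq promoter windows of the same length. TATAAA was present in 18 (62.1%), against 10.7%, and ATTTGCAT in 11 (37.9%), against 1.63%. The 37 matched windows of the clustered rows outside the membership held the same letters at 83.8%, 70.3% and 40.5%, so the members and the barely counted rows of the clusters did not stand far apart in these elements. HIST1H2BK, HIST1H2BJ and HIST1H2AC carry all the elements in their windows. So do the members HIST1H2AG, HIST1H2BC, HIST1H2BE, HIST1H2BO, HIST2H2AC and HIST2H2BE. In the HIST1H1C window only CCAAT was found, and HIST1H4H, HIST1H4E and HIST2H4B had no match to any of these letters.

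The stem-loops at the ends of the members are shown because they are the mark of a replication-dependent histone RNA. The histone stem-loop was searched by its consensus, with the inner bases of its stem required to pair, in the 100 bases after the stop codon of the annotated transcripts. It was found in 20 of the 21 members whose annotation runs past the stop codon, and in 41 of 19080 protein-coding genes searched (0.215%), 31 of which are rows of the histone clusters. The capitals are the whole stem-loop, and 6 spellings occurred among members.
HIST1H2AC and 8 other members: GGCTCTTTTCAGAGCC
HIST1H2BC, HIST1H2BD, HIST1H2BF and HIST3H3: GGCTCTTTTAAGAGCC
HIST1H4H, HIST1H4E and HIST4H4: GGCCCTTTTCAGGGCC
HIST1H4I and HIST2H4B: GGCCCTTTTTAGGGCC
HIST1H3E: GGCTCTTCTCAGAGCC
HIST1H2AG: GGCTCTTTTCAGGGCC
HIST1H2BJ was the member searched in which no such letters were found. The remaining 8 members, HIST1H1C and HIST1H2BK among them, are annotated by their coding part alone and could not be searched. In 17 of the 29 members an annotated transcript continued for at least 100 bases beyond the stem-loop, as in 6 of the other 42 rows. A spliced transcript was annotated for 11 members and for 2 of the other rows, and AATAAA, the poly(A) signal, lay near the end of a transcript in 13 members and in 8 other rows. These are properties of the annotation and not of the reads, and whether the libraries were selected for poly(A) was not stated.

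To see how the clustered histone genes stood after DDX24 depletion, each shRNA library was compared with Control-sh. Values are log2 ratios of CPM, the counts scaled by library size, with a prior count of 2, and the interval beside a ratio is the exact 95% interval from the 2 counts, which covers counting error only. No test between conditions was possible with 1 library each, and both ratios share the control library. The members summed to 3058 counts in the control, 4116 with DDX24-sh1 and 3558 with DDX24-sh2, or 0.0178%, 0.0224% and 0.0199% of the library. The sum with DDX24-sh1 was higher than in the control by a log2 ratio of 0.33 (interval 0.26 to 0.40), and with DDX24-sh2 by 0.14 (0.07 to 0.21). Without HIST1H1C the ratios were 0.16 (0.08 to 0.23) and 0.029 (-0.05 to 0.11), the latter within counting error. HIST1H2AC, a member of this sum, was lower with both hairpins. Without the 3 most counted members, HIST1H1C, HIST1H2BK and HIST1H2AC, the ratios of the remaining 26 were 0.20 (0.10 to 0.31) and 0.18 (0.07 to 0.28). These 26 held 44.9%, 41.2% and 46.2% of the members' counts. In cultures as a whole, a different share of cells in S phase and a different amount of histone RNA per cell cannot be told apart.

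**Figure D1:**
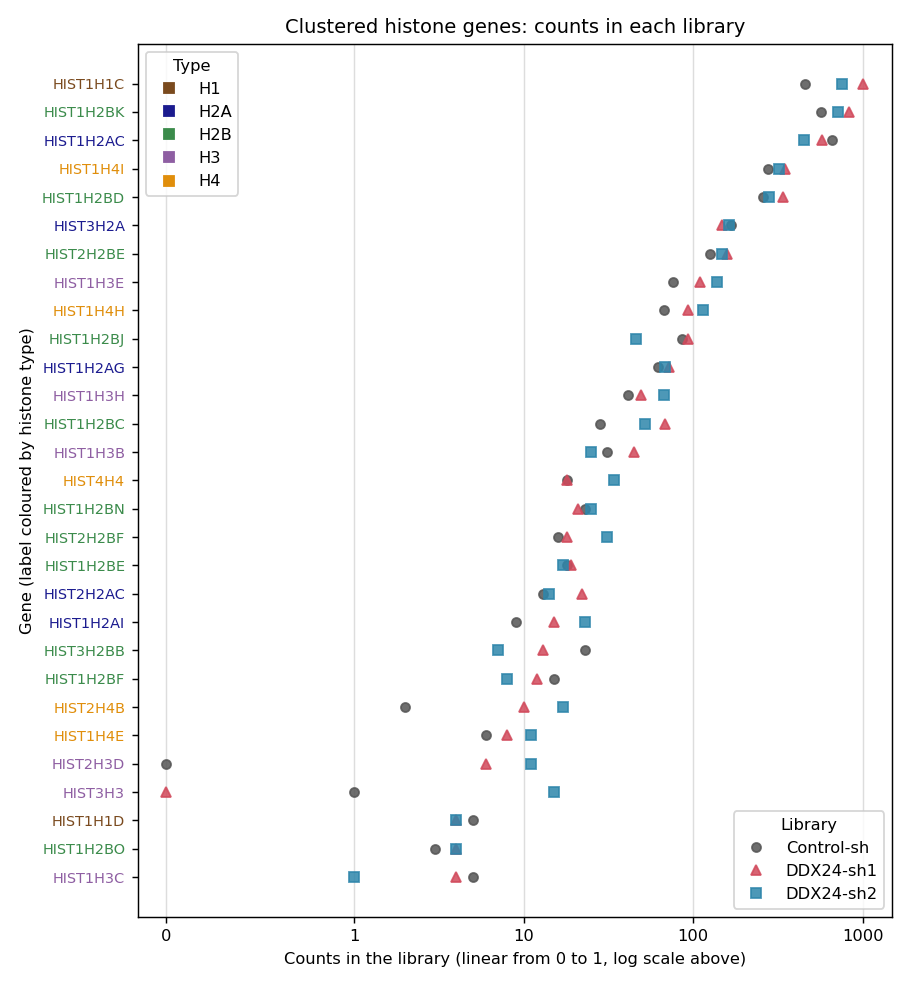
Counts of the 29 members in each library, 1 row per gene, on an axis that is linear from 0 to 1 and logarithmic above. Points are single libraries without error bars, gene labels are coloured by histone type, and HIST1H1C, HIST1H2BK and HIST1H2AC lie at the top with 449 to 1012 counts.

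Of the 29 members, 19 had a higher and 10 a lower value with DDX24-sh1, and 20 a higher and 9 a lower value with DDX24-sh2. Among all 18187 genes with at least 10 counts, 48.8% and 49.8% had a higher value and 51.2% and 50.2% a lower one. The median log2 ratio of the members was 0.20 with DDX24-sh1 and 0.16 with DDX24-sh2, and that of all genes was -0.01 and -0.0024. In DDX24-sh1, 4 members were at least 2-fold higher, where 5.76% of all genes were, and 0 were at least 2-fold lower, where 4.67% were. In DDX24-sh2, 4 were at least 2-fold higher (7.22% of all genes) and 2 at least 2-fold lower (4.63%). Most of these had few counts. HIST3H3, HIST2H3D and HIST2H4B among them reached the limit of 10 through shRNA libraries where they were high, so their calls are partly built in by the membership rule. Among the 14 members with at least 100 counts over the libraries, 2 were 2-fold higher with DDX24-sh1, HIST1H1C and HIST1H2BC, against 1.71% of genes with as many counts, and 0 were 2-fold lower, against 1.93%. Of the same 14, 0 were 2-fold higher or lower with DDX24-sh2, against 1.97% and 2.7%. At 1.5-fold, 5 members were higher and 2 lower with DDX24-sh1, against 12.9% and 11.8% of all genes. With DDX24-sh2 it was 12 higher and 5 lower, against 14.8% and 11.8%, and the 12 spanned all types, HIST1H1C, HIST1H3E, HIST1H3H, HIST1H4H and HIST1H2BC being those with at least 100 counts. The interval lay above 0 for 6 members and below 0 for 1 with DDX24-sh1, against 20.2% and 23.9% of all genes. It lay above 0 for 10 and below 0 for 3 with DDX24-sh2, against 21% and 24.9%.

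**Figure D2:**
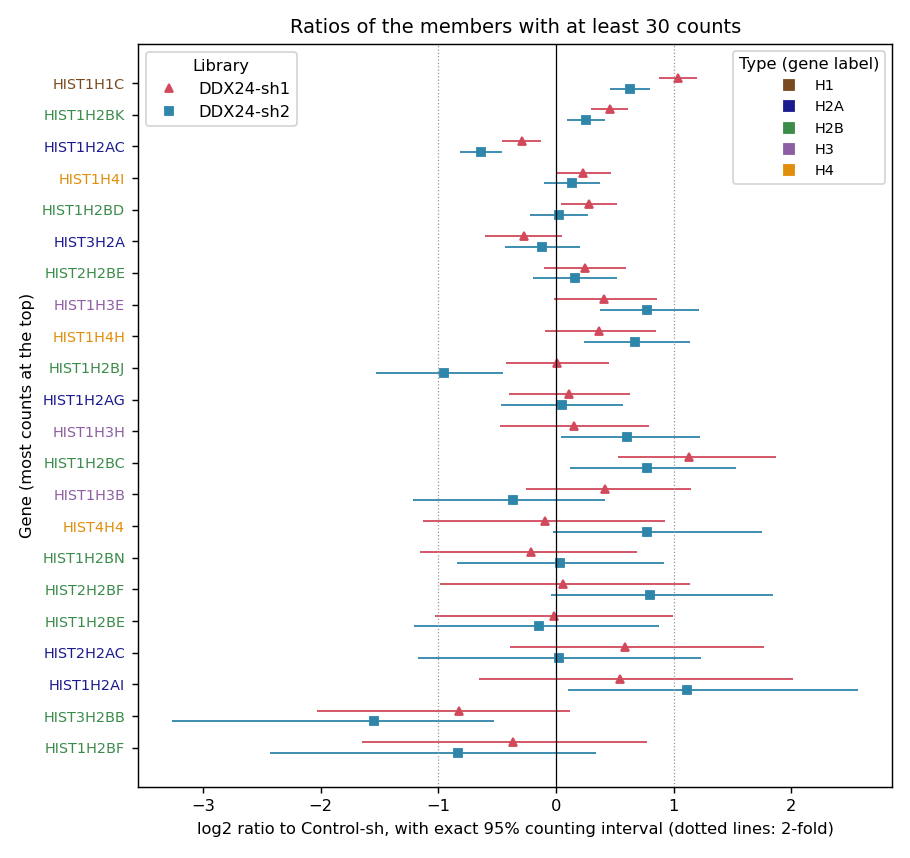
Log2 ratios to Control-sh of the 22 members with at least 30 counts, with DDX24-sh1 (triangles) and DDX24-sh2 (squares), with exact 95% counting intervals as bars. The bars of HIST1H1C and HIST1H2BK lie right of 0 and those of HIST1H2AC left of 0 for both hairpins, while the bars widen towards the genes with few counts at the bottom.

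Of the linker histones, HIST1H1C (ENSG00000187837, 6:26055787-26056428, minus strand, GRCh38), a widely expressed H1 subtype, had 459 counts in the control, 1012 with DDX24-sh1 and 753 with DDX24-sh2. Its log2 ratio was 1.04 (0.88 to 1.20) with DDX24-sh1 and 0.63 (0.46 to 0.80) with DDX24-sh2, so DDX24-sh1 held 206% and DDX24-sh2 155% of the control level. It was the member with the most counts, and it held 24.6% of the members' counts with DDX24-sh1 and 21.2% with DDX24-sh2. The only other H1 member, HIST1H1D, had 5, 4 and 4 counts, too few to show a difference, and HIST1H1E stayed outside the membership with 2, 4 and 3.

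The linker histone genes that lie outside the clusters were lower than in the control with both hairpins, whereas HIST1H1C was higher. H1F0, the variant associated with differentiated and resting cells, had 3304, 2130 and 1739 counts and log2 ratios of -0.73 (-0.81 to -0.65) and -1.01 (-1.09 to -0.92). H1FX had 2146, 1418 and 1062 counts, with ratios of -0.70 (-0.80 to -0.60) and -1.09 (-1.20 to -0.99). The opposite direction held only against the shared control. In DDX24-sh2 against DDX24-sh1, HIST1H1C was lower at -0.41 (-0.55 to -0.27), and H1F0 and H1FX summed were lower at -0.32 (-0.39 to -0.25). Summed over H1F0, H1FX and HIST1H1C the counts were 5909, 4560 and 3554, a log2 ratio of -0.47 (-0.53 to -0.42) with DDX24-sh1 and -0.81 (-0.87 to -0.75) with DDX24-sh2. HIST1H1C is counted on its coding part alone, so these sums add genes measured over unlike lengths.

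**Figure D3:**
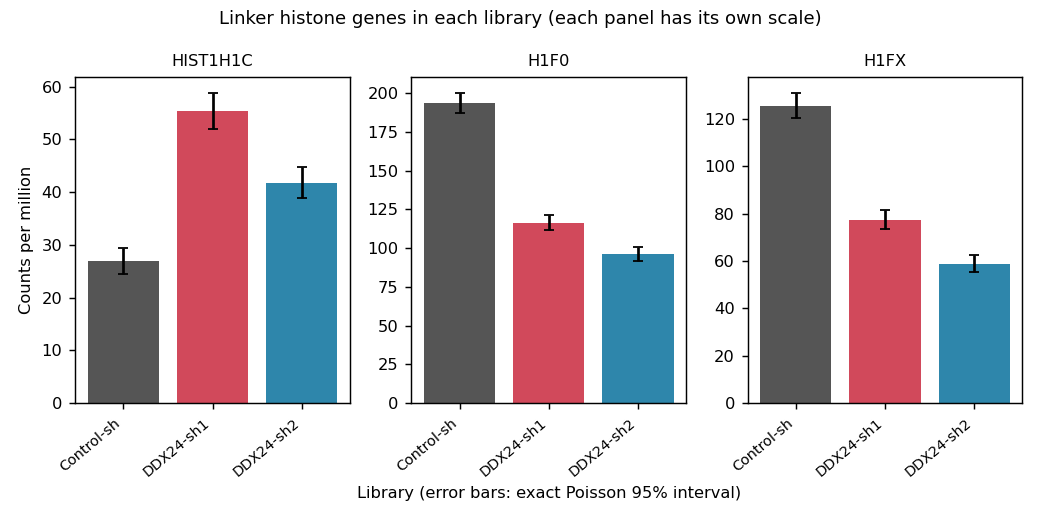
CPM of HIST1H1C, H1F0 and H1FX in the 3 libraries, each panel with its own axis starting at 0 and with exact Poisson 95% intervals of the single count. HIST1H1C goes from 26.9 CPM in the control to 55.3 and 41.7, whereas H1F0 and H1FX are highest in the control.

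Among the H2A genes, HIST1H2AC (ENSG00000180573, 6:26124145-26139116, plus strand) had the most counts, 660 in the control, 578 with DDX24-sh1 and 449 with DDX24-sh2. It was the only member whose interval lay below 0 with DDX24-sh1, at -0.29 (-0.45 to -0.13), and with DDX24-sh2 its ratio was -0.63 (-0.81 to -0.46). The control held more of it than either shRNA library. HIST3H2A, on chromosome 1, had 167, 148 and 163 counts, with ratios of -0.27 (-0.60 to 0.05) and -0.11 (-0.44 to 0.20), both within counting error. HIST1H2AG had 62, 72 and 68 counts. HIST1H2AI had 9, 15 and 23, a ratio of 1.12 (0.11 to 2.57) with DDX24-sh2, but 62.3% of its 50-base windows also occur in HIST1H2AJ, and over both genes the counts were 13, 15 and 24, with a ratio of 0.80 (-0.23 to 1.90). HIST2H2AC had 13, 22 and 14 counts and no difference beyond counting error.

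The H2B genes gave the largest number of members, 11, and their ratios had different signs. HIST1H2BK (ENSG00000197903, 6:27146418-27146798, minus strand) had 565, 832 and 713 counts, with ratios of 0.46 (0.30 to 0.62) and 0.25 (0.09 to 0.42), higher for both hairpins. Of its 50-base windows 74.1% occur in another gene, mostly H2BFS, which had 0, 2 and 3 counts. Adding H2BFS left the ratios at 0.46 and 0.26. HIST1H2BD had 259, 337 and 279 counts and ratios of 0.28 (0.04 to 0.52) and 0.03 (-0.22 to 0.28), so only DDX24-sh1 differed from the control beyond counting error. HIST2H2BE had 125, 159 and 148 counts, which overlap the control within error. HIST1H2BC had 28, 68 and 52 counts, with ratios of 1.13 (0.53 to 1.87) and 0.77 (0.12 to 1.53), the largest ratio with DDX24-sh1 among members with at least 30 counts.

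HIST1H2BJ (ENSG00000124635, 6:27125897-27132750, minus strand) differed between the hairpins. It had 86 counts in the control, 93 with DDX24-sh1 and 46 with DDX24-sh2, which gave 0.01 (-0.43 to 0.45) with DDX24-sh1 and -0.95 (-1.53 to -0.45) with DDX24-sh2. HIST3H2BB had 23, 13 and 7 counts, with ratios of -0.83 (-2.03 to 0.12) and -1.55 (-3.26 to -0.53), the lowest of the members with at least 30 counts for both hairpins. HIST1H2BF had 15, 12 and 8 counts and ratios of -0.37 (-1.65 to 0.77) and -0.84 (-2.43 to 0.34). HIST1H2BN had 23, 21 and 25 counts, HIST1H2BE 18, 19 and 17, and HIST2H2BF 16, 18 and 31. For these genes the counts do not separate the libraries, and their exons overlap other annotated genes, HIST1H2AK and HIST1H2AL for HIST1H2BN, AL353759.1 for HIST1H2BE and FCGR1A for HIST2H2BF. HIST1H2BO had 3, 4 and 4 counts.

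The H3 members had higher values with DDX24-sh2 than in the control in 4 of 6 cases, where 49.8% of all genes did. HIST3H3 and HIST2H3D among them reached the limit of 10 counts through shRNA libraries where they were high. This count is thus partly built in by the membership rule. HIST1H3E (ENSG00000274750, 6:26224199-26227473, plus strand), the most counted of them, had 76, 109 and 139 counts, with ratios of 0.41 (-0.02 to 0.86) with DDX24-sh1 and 0.78 (0.38 to 1.21) with DDX24-sh2. HIST1H3H had 41, 49 and 67 counts, with ratios of 0.15 (-0.47 to 0.79) and 0.60 (0.05 to 1.23). In both genes DDX24-sh1 lay between the other libraries. HIST1H3B went another way, with 31, 45 and 25 counts, and neither ratio to the control exceeded counting error. HIST1H3C had 5, 4 and 1 counts. HIST3H3, an H3 gene best known from testis, had 1, 0 and 15 counts, so nearly all of its counts came from DDX24-sh2, with a ratio of 2.46 (1.13 to 9.22) to the control. HIST2H3D had 0, 6 and 11 counts. With the control set to a floor of 3 counts it was 1.87-fold higher with DDX24-sh1 and 3.47-fold higher with DDX24-sh2. These folds are not lower limits, and the counting intervals of HIST2H3D began at log2 ratios of 0.14 and 1.25. Most of its windows, 80.4%, occur in other genes, and with HIST2H3A, HIST2H3C and the pseudogene HIST2H3DP1 added the counts were 0, 6 and 12.

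All 5 H4 members had a ratio above 0 with DDX24-sh2 and 4 did with DDX24-sh1, against 49.8% and 48.8% of all genes. The H4 protein they encode is the same. HIST1H4I (ENSG00000276180, 6:27138588-27139881, plus strand) had 275, 347 and 320 counts, with ratios of 0.23 (0.0032 to 0.47) and 0.14 (-0.10 to 0.38). The RefSeq span of the HIST1H2BK gene, on the opposite strand, runs from 27138293 to 27146858 and covers HIST1H4I. The GENCODE exons of HIST1H4I overlap no other gene. Any HIST1H2BK reads within HIST1H4I could not be told from its own if strand was not used in counting, which was not stated. HIST1H4H had 67, 93 and 114 counts, with ratios of 0.36 (-0.10 to 0.85) and 0.67 (0.24 to 1.14), the higher with DDX24-sh2. HIST4H4, the single gene of its cluster on chromosome 12, had 18, 18 and 34 counts and a ratio of 0.77 (-0.03 to 1.75) with DDX24-sh2. HIST1H4E had 6, 8 and 11 counts. HIST2H4B had 2, 10 and 17 counts, with a ratio of 1.52 (-0.01 to 5.45) with DDX24-sh1 and 2.20 (0.93 to 6.16) with DDX24-sh2. It reached the limit of 10 counts through the shRNA libraries, where it was higher. It shares 97.2% of its windows with HIST2H4A, and the pair summed to 3, 11 and 21 counts, a ratio of 1.77 (-0.15 to 4.26) and 2.73 (0.98 to 5.12) without a prior count.

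The make-up of the histone counts by type differed between the control and the shRNA libraries. H1 members held 15.2% of the members' counts in the control, 24.7% with DDX24-sh1 and 21.3% with DDX24-sh2, and H2A members 29.8%, 20.3% and 20.2%. H2B members held 38.0%, 38.3% and 37.4%, H3 members 5.04%, 5.17% and 7.25%, and H4 members 12.03%, 11.6% and 13.9%. In summed counts, H1 was higher by a log2 ratio of 1.03 (0.87 to 1.19) with DDX24-sh1 and 0.63 (0.46 to 0.80) with DDX24-sh2. H2A was lower, at -0.23 (-0.36 to -0.09) and -0.43 (-0.57 to -0.28). H3 was higher, at 0.37 (0.06 to 0.68) and 0.66 (0.37 to 0.96), and so was H4, at 0.27 (0.07 to 0.47) and 0.35 (0.15 to 0.55). The H3 sum includes HIST3H3 and HIST2H3D and the H4 sum HIST2H4B. These genes reached the membership limit through shRNA libraries where they were high, so both differences are partly built in by the membership rule. Single genes set the H1 and H2A differences. Without HIST1H1C the H1 ratios were -0.42 and -0.40 on 5, 4 and 4 counts, and without HIST1H2AC the H2A ratios were -0.066 and 0.014. H2B was higher with DDX24-sh1, at 0.34 (0.23 to 0.45), and its 0.12 (0.00067 to 0.23) with DDX24-sh2 became -0.031 without HIST1H2BK.

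**Figure D4:**
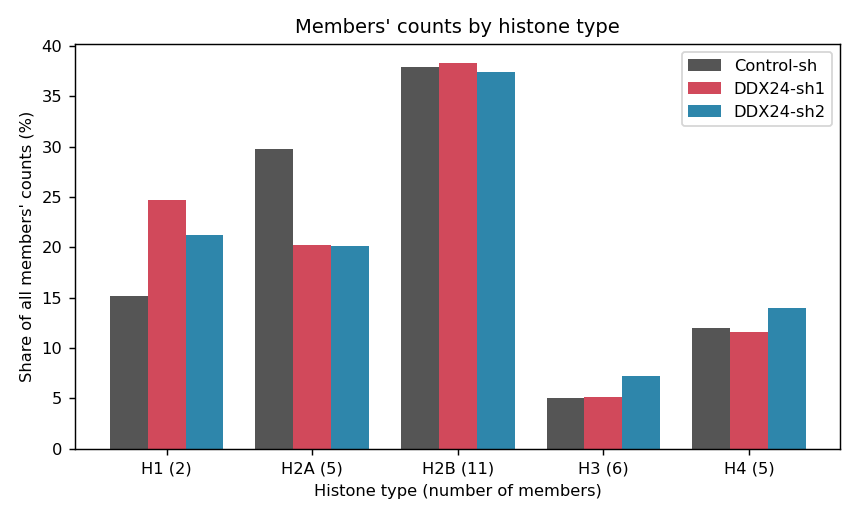
Share of all members' counts held by each histone type, in percent on an axis from 0, for the 3 libraries, with the number of members in brackets. The H1 bars go from 15.2% in the control to 24.7% and 21.3%, and the H2A bars go from 29.8% to 20.3% and 20.2%, while the H2B bars stay between 37.4% and 38.3%.

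The genomic clusters were also summed. The 20 HIST1 members on chromosome 6 held 88.1%, 90.4% and 87.6% of the counts, so the other clusters add little. The 5 HIST2 members had 156, 215 and 221 counts, with ratios of 0.36 (0.06 to 0.67) and 0.42 (0.12 to 0.73), higher in both. They include HIST2H3D and HIST2H4B, which reached the membership limit through the shRNA libraries. The 3 HIST3 members had 191, 161 and 185 counts, with ratios of -0.35 (-0.66 to -0.04) and -0.13 (-0.43 to 0.17). The 8 members annotated by their coding part alone had 1081, 1929 and 1525 counts, a ratio of 0.74 (0.63 to 0.84) with DDX24-sh1 and 0.42 (0.30 to 0.53) with DDX24-sh2. The 21 members with a longer annotation had 1977, 2187 and 2033, at 0.046 (-0.04 to 0.13) and -0.040 (-0.13 to 0.05). This split follows HIST1H1C and HIST1H2BK, which lie in the former set.

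On a scale of CPM per kilobase of gene length, HIST1H2BK stood highest in the control at 86.9, followed by HIST1H1C at 41.9, HIST1H2AC at 23.2, HIST1H2BD at 17.4, HIST1H4I at 12.4 and HIST3H2A at 10.9. All other members were at 5.30 or less. The lengths behind these levels run from the coding part alone for HIST1H2BK and HIST1H1C to a long spliced model for HIST1H2AC, so the order depends on the annotation as well as on the RNA.

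The hairpins were then set against each other, since both target DDX24. In DDX24-sh2 against DDX24-sh1, 14 members had a higher and 15 a lower value, where 50.6% of all genes had a higher value, and the median log2 ratio was -0.06, against 0.0058 for all genes. At least 2-fold higher with DDX24-sh2 was 1 member, HIST3H3, against 4.93% of all genes, and 0 were at least 2-fold lower, against 2.89%. At 1.5-fold 5 were higher (11.2% of all genes) and 4 lower (8.35%). The interval lay above 0 for 2 members, against 18.2% of all genes, and below 0 for 6, against 19.3%. The 6 were HIST1H1C at -0.41 (-0.55 to -0.27), HIST1H2BK at -0.20 (-0.35 to -0.06), HIST1H2AC at -0.34 (-0.53 to -0.16), HIST1H2BD at -0.25 (-0.49 to -0.02), HIST1H2BJ at -0.97 (-1.54 to -0.47) and HIST1H3B at -0.78 (-1.60 to -0.09). They included the 3 most counted members. The 2 above 0 were HIST3H3, 5.07-fold higher against a floor of 3 counts, and HIST4H4 at 0.86 (0.07 to 1.85). For HIST3H3 the counting interval began at a log2 ratio of 1.86. Summed over all members the ratio was -0.19 (-0.26 to -0.13), and over the H3 members it was 0.30 (0.03 to 0.56), in the opposite direction. The H3 sum includes HIST3H3, with 0 counts in DDX24-sh1 and 15 in DDX24-sh2, which reached the membership limit through DDX24-sh2. The H3 difference is thus partly built in by the membership rule. Over the H3 members with a mean CPM of 1 or more, which leave HIST3H3 out, the ratio was 0.21. Whether that ratio exceeds counting error was not tested. The 15 members with fewer than 100 counts summed to 157, 174 and 222 counts, with 0.37 (0.08 to 0.67) between the hairpins. HIST3H3 is part of this sum too, so its difference is also partly built in by the membership rule.

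At the edge of the membership, HIST1H3C with 10 counts and HIST1H2BO with 11 counts over the libraries lay just inside the limit of 10. Just outside it, HIST1H1E, HIST1H2BH, HIST1H3G and HIST1H4K had 9 counts each and HIST1H4B had 7. Of the 42 rows outside, 18 were at 0 in every library, and their counts summed to 22 in the control, 33 with DDX24-sh1 and 44 with DDX24-sh2, a ratio of 0.49 (-0.34 to 1.33) and 0.92 (0.15 to 1.73). At these depths 0 counts in a library allow up to 3. The 19 pseudogene rows of the clusters had 127, 99 and 101 counts, most of them on HIST2H2BC with 102, 72 and 72, and their sum was lower for both hairpins, at -0.46 (-0.85 to -0.07) and -0.41 (-0.80 to -0.02).

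Clustered H2A and H2B genes often lie head to head and share the bases between their starts, as the windows above show. Both genes were members in 4 such pairs. HIST1H2BC and HIST1H2AC, whose RefSeq starts lie 246 bases apart, differed in opposite directions, with 28, 68 and 52 counts for the former and 660, 578 and 449 for the latter. In the pair of HIST1H2BJ and HIST1H2AG, 248 bases apart, the former had 86, 93 and 46 counts while the latter had 62, 72 and 68. In the pair of HIST2H2BE and HIST2H2AC (236 bases) and that of HIST3H2A and HIST3H2BB (230 bases) the less counted gene had at most 23 counts in a library. HIST1H2BK faces HIST1H2AH, which had 1, 0 and 5 counts against 565, 832 and 713.

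Genes that make or accompany histone RNA were compared from lists by function. Of 27 factors of histone pre-mRNA cleavage and decay with at least 10 counts, 1 was at least 2-fold higher with each hairpin. None was at least 2-fold lower, and the medians were -0.08 and 0.05. Of all genes, 5.76% and 7.22% were at least 2-fold higher with DDX24-sh1 and DDX24-sh2, and 4.67% and 4.63% at least 2-fold lower. These shares stand beside each list below. SLBP, which binds the stem-loop, had 933, 1028 and 1055 counts and ratios of 0.04 (-0.09 to 0.17) and 0.10 (-0.03 to 0.23). LSM11, a part of U7 snRNP, had 129, 162 and 191 counts, with 0.23 (-0.11 to 0.57) and 0.48 (0.16 to 0.82). ZNF473, also known as ZFP100 and a U7 snRNP partner, had 404, 228 and 253 counts, with -0.92 (-1.17 to -0.69) and -0.75 (-0.99 to -0.53). The 1 factor past 2-fold was SNRPG, an Sm protein shared with the spliceosome, with 431, 1251 and 1224 counts. The most abundant factors, SNRPB, SYMPK, SRRT and UPF1, lay between -0.42 and -0.03.

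Of 12 genes tied to histone transcription, the medians were -0.23 and -0.07. CCNE1, the cyclin that activates CDK2 at the start of S phase, had 258, 526 and 686 counts. Its ratios were 0.92 (0.71 to 1.15) and 1.32 (1.12 to 1.54). It was the 1 member of the list past 2-fold, with DDX24-sh2, where 7.22% of all genes were at least 2-fold higher. NPAT, the coactivator at histone loci that cyclin E and CDK2 phosphorylate, had 224, 234 and 299 counts, with -0.04 (-0.31 to 0.23) and 0.33 (0.08 to 0.59). POU2F1, which binds the octamer, had 535, 412 and 384 counts and was lower in both, at -0.47 and -0.56. Of the most abundant genes of the list, TRRAP had ratios of -0.39 and -0.53, YY1 -0.23 and -0.18, E2F1 -0.14 and -0.10, and GON4L -0.10 and -0.05.

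Of 23 S-phase genes with at least 10 counts, 0 were at least 2-fold higher or lower with either hairpin. The interval lay above 0 for 3 and below 0 for 12 with DDX24-sh1, against 10 and 5 with DDX24-sh2. Of the 12833 genes with at least 100 counts, it lay above 0 for 3163 and below 0 for 4007 with DDX24-sh1. With DDX24-sh2 these were 3105 and 4199. The medians were -0.23 with DDX24-sh1 and 0.09 with DDX24-sh2. A relation of these values to the clustered histone counts was not tested. Between the hairpins 22 of the 23 were higher with DDX24-sh2, the interval lying above 0 for 20. Of all genes 50.6% were higher, and the interval lay above 0 for 2788 of the 12833 with at least 100 counts. PCNA, the replication clamp, had 3710, 4231 and 5175 counts, MCM7 4470, 3914 and 4654, MCM4 2882, 3107 and 3809, and TK1 3327, 2674 and 3096. RRM2, a subunit of ribonucleotide reductase, had 715, 914 and 1403.

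Of 24 histone chaperones, 0 were at least 2-fold higher or lower with either hairpin, with medians of -0.20 and -0.02. The interval lay below 0 for 14 with DDX24-sh1 and for 8 with DDX24-sh2. Of the 12833 genes with at least 100 counts, it lay below 0 for 4007 and 4199, so the 8 were near that share. SUPT16H, a subunit of the FACT complex, had 3772, 2445 and 3067 counts, with -0.72 (-0.80 to -0.65) and -0.38 (-0.45 to -0.31), and its partner SSRP1 had 5618, 4184 and 4954. NAP1L1 had 10621, 9106 and 10424 counts, and RBBP7, the other of the 4 most abundant, 3753, 3806 and 3931.

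Of 17 histone variant genes outside the clusters, 11 had at least 10 counts, with medians of -0.06 and -0.12. At least 2-fold lower were 0 with DDX24-sh1 and 2 with DDX24-sh2, H1F0 and H1FX, against 4.67% and 4.63% of all genes. H3F3B, which encodes H3.3, had 5338, 7258 and 7941 counts, with ratios of 0.34 (0.29 to 0.39) and 0.49 (0.44 to 0.54), whereas H3F3A, which encodes the same protein, had 2879, 2958 and 2796. H2AFX had 1649, 2121 and 2483 counts and H2AFZ 3350, 3450 and 4605. H2AFY had 2637, 2864 and 3074. CENPA, the centromeric H3, had 728, 408 and 476 counts, with -0.93 (-1.11 to -0.76) and -0.69 (-0.86 to -0.53). The variants summed to 26134, 26895 and 28361 counts, several times the sum of the clustered genes in every library.

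**Figure D5:**
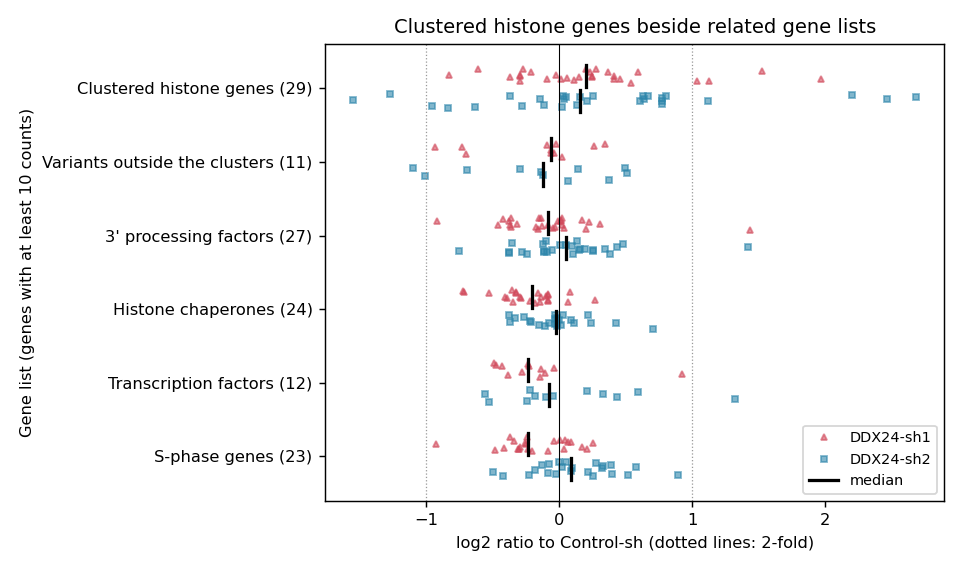
Log2 ratios to Control-sh of the clustered histone genes and of the genes with at least 10 counts on 5 related lists, DDX24-sh1 as triangles and DDX24-sh2 as squares, with black bars at the medians and dotted lines at 2-fold. The clustered histone genes have the widest spread and medians of 0.20 and 0.16, and the other medians lie between -0.23 and 0.09. Of the members, 15 have fewer than 100 counts. Those with at least 100 run from -0.29 to 1.13 with DDX24-sh1 and from -0.95 to 0.78 with DDX24-sh2. The cleavage and decay factors run from -0.92 to 1.43 and from -0.75 to 1.42.

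RNAs that carry no poly(A) tail were counted as a limited view of how far such RNA was captured. Of 23 rows of snRNA, snoRNA, telomerase and signal recognition particle RNA genes, 14 were at 0 in every library and 3 had at least 10 counts. RN7SL2 had 857, 1229 and 916 counts, RN7SL3 had 46, 136 and 113, SNORA73B had 10, 12 and 22, and SCARNA13 had 1, 2 and 4. The sum of the list was 915, 1385 and 1060 counts, with log2 ratios of 0.50 (0.38 to 0.62) and 0.13 (0.0025 to 0.26), highest with DDX24-sh1 as was the sum of the clustered histone genes. Most of the sum of the list was RN7SL2 in every library, while RN7SL1, RN7SK, RMRP and RPPH1 were at 0 throughout. The list sum thus describes mainly RN7SL2 and not RNA without a tail in general. The part of a difference in capture between the libraries in the histone counts was not tested.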

How the data were processed

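RNA was sequenced from A549 cells in 3 libraries, 1 per condition, made from 4 µg of total RNA each. The authors deposited whole-number counts per gene for 58735 genes, without normalization, and FPKM per gene, in which the count is divided by gene length and library size. The submitters' processing notes name Bowtie2 2.0.6, TopHat2 2.0.9, Cufflinks 2.1.1 and Cuffdiff 2.1.1, without roles. The counter, the use of strand and the library selection are not given in the sources used here. Gene identifiers, starts and ends match GENCODE 29 (GRCh38) for all 58735 genes. Samples were grouped by their titles.

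Ratios were taken from the counts, scaled in edgeR 4.0.16 under R 4.3.3 (TMM factors 0.991, 0.997 and 1.01, prior count of 2), and handled in Python 3.11.15 with scipy 1.17.1. With 1 library per condition neither a model nor a p-value was calculated. Intervals are exact 95% conditional binomial (Clopper-Pearson) or Poisson intervals, computed from counts. They cover counting error only, because each rests on single counts from 1 library per condition. The reads also carry no molecular identifiers and may repeat molecules, so the intervals may be too narrow even for counting error. The ratio step was tested on simulated counts. Of the genes with at least 10 counts, 18187 form the background.

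The members, the gene lists and the tests were chosen with earlier results of these data known. Members were named if, among the 22 with at least 30 counts, they were among the 5 highest or 5 lowest in a comparison, if they were among the 10 most counted or the most counted of a type or cluster, or if they had 10 to 12 counts, together with rows of 7 to 9 counts outside. Of each list, genes past 2-fold in 1 direction in both shRNA libraries and the 4 with the highest mean CPM were named. Other members and genes named were chosen after their values were seen. For SCARNA, snRNA and other rows at 0 only counts are given. A member was called shared if most of its 50-base windows occur in another annotated gene. Promoter sequences are from RefSeq (GRCh38.p14), transcripts from GENCODE 29. Alternatives were DESeq2 1.42.0 size factors, scaling by totals, log2(FPKM + 0.1) of the deposited FPKM with the shRNA names as given and exchanged, a prior count of 0.5, other limits on counts, other thresholds, and sets without shared or most counted members. Figures were drawn with matplotlib 3.10.9.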

Additional observations from a re-analysis of the deposited data

How the results depend on the processing

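No library could be left out for want of replicates. No paired analysis was possible because each condition has 1 library. Under DESeq2 size factors, total counts, a prior count of 0.5 and the FPKM with the shRNA names exchanged, all 66 ratios of the 22 named members stayed within their counting intervals. The exchanged FPKM are the same counts over gene length and library size, so for single genes this agreement was nearly fixed in advance. Total counts also changed little, since the TMM factors were 0.991, 0.997 and 1.01. With the FPKM names as given 37 ratios stayed within, 21 moved outside and 8 turned round. The cause of the values below was not tested beyond what each setting leaves out.

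With at least 2-fold as the call, 4 and 0 members were higher and lower with DDX24-sh1, 4 and 2 with DDX24-sh2, and 1 and 0 between the hairpins. The higher counts with DDX24-sh1 became 2 without members with most windows shared, with a mean CPM of 1 or more, and with at least 100 counts, a limit added after seeing the data. The lower count there became 2 in the FPKM with names as given and at 1.5-fold, and 1 in the exchanged FPKM, with a prior count of 0.5 and with no filter. In DDX24-sh2 the higher count became 7 with no filter, 0 with a mean CPM of 1 or more or at least 100 counts, 1 without shared members and 12 at 1.5-fold (14.8% of all genes). The lower count became 1 in the FPKM as given and where the interval also had to lie beyond 0, 0 with a mean CPM of 1 or more or at least 100 counts, and 5 at 1.5-fold. Between the hairpins the higher count became 3 with no filter, 0 with a mean CPM of 1 or more or at least 100 counts and 5 at 1.5-fold, and the lower count 1 in both FPKM settings, with a prior count of 0.5 and with no filter, and 4 at 1.5-fold.

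The summed ratio of all members with DDX24-sh1, DDX24-sh2 and between the hairpins was 0.24, 0.48 and 0.24 in the FPKM as given and 0.48 and 0.24 in the exchanged FPKM, 0.16 and 0.029 without the most counted member, 0.20, 0.18 and -0.025 without the 3 most counted, and 0.046, -0.040 and -0.086 without members annotated by their coding part, the last 2 sets added after seeing the data. With the FPKM names as given the sums were 0.63, 1.04 and 0.41 for H1, -0.16 with DDX24-sh2 and 0.15 between the hairpins for H2A, 0.19, 0.43 and 0.23 for H2B, and -0.10 between the hairpins for H3. Without the most counted member of the type they were -0.42, -0.40 and 0.019 for H1, -0.066, 0.014 and 0.080 for H2A, 0.22 and -0.031 for H2B, which shared members also gave, and 0.84 and 0.47 for H4 with DDX24-sh2 and between the hairpins. HIST1H2BJ gave 0.026 with DDX24-sh2 with the FPKM names as given. Between the hairpins that setting gave 0.97 for HIST1H2BJ, 0.26 for HIST1H2BD, 0.35 for HIST1H2AC, 0.41 for HIST1H1C, -0.78 for HIST4H4, 0.21 for HIST1H2BK and 0.81 for HIST1H3B. Of the variants outside the clusters 1 instead of 2 was 2-fold lower with DDX24-sh2 with DESeq2 size factors or total counts, and of the RNAs without a poly(A) tail 2 instead of 1 were 2-fold higher there with a prior count of 0.5. Medians of the members and of the lists stayed within their order-statistic intervals.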
